A study of Mus musculus with 28 samples.

Results

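The 10 genes described here encode the mouse receptors for the constant part of IgG (Fcgr1, Fcgr3, Fcgr4 and Fcgr2b), the 2 signalling adaptors Fcer1g and Tyrobp, and 4 C-type lectins of myeloid cells (Clec4d, Clec4e, Clec4n and Clec7a). They were chosen by name, with earlier results of these data known. Shares of all genes given beside theirs are therefore a background and not a test. All 10 are among the 18194 genes measured. The animals were C57BK/6J mice (the labels' spelling) aged 9 weeks. Their feed contained trans-10 cis-12 CLA, a conjugated linoleic acid, at 0.5%, or was a control diet, and lasted 1, 2, 3, 4, 7, 10 or 17 days. Expression was measured with 28 oligonucleotide arrays of retroperitoneal fat pads, with 2 arrays in every one of 14 groups (a diet on a day). The pads of 10 mice were pooled before RNA extraction, and the series record counts 140 mice. One pool for every group would use up those 140 mice, although the record also calls the pools replicated. If both arrays of a group come from 1 pool, p-values for single days, or for differences between days, reflect only technical spread. Only the test over all days and the tests between pairs of the 10 genes have a larger unit, the day. All values are log2 probe-set values after RMA, and errors are model SE unless an SD is named. A gene is called changed where its limma p-value, adjusted over all 18194 genes, is under 0.05.

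Fc gamma receptors bind antibody-coated particles and immune complexes on macrophages, neutrophils and other leukocytes. The activating receptors Fcgr1, Fcgr3 and Fcgr4 have no signalling motif of their own and need the common gamma chain, Fcer1g, whose tyrosine motif (ITAM) recruits the kinase Syk, while Fcgr2b carries an inhibitory motif (ITIM) that recruits the phosphatase Inpp5d. Tyrobp (DAP12) is the ITAM adaptor of Trem2 and other myeloid receptors. The lectins Clec4d (MCL), Clec4e (Mincle) and Clec4n (Dectin-2) signal through Fcer1g, whereas Clec7a (Dectin-1), a receptor for beta-glucan, carries an ITAM-like motif in its own tail. In fat, macrophages that gather around dying adipocytes are a known site of such receptors.

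The genes lie in clusters. On chromosome 1, Fcgr2b, Fcgr4 and Fcgr3 are consecutive protein-coding genes, and on chromosome 6 Clec4n, Clec4d and Clec4e are, with Clec7a elsewhere on chromosome 6 between Clec1a and Olr1. Promoter windows from 250 bases before to 50 bases after the annotated start were taken from RefSeq (GRCm38.p6) for 8 of the 10 genes. The 4 windows below were picked after the values were seen, to set genes with unlike time courses side by side, with capitals marking GAGGAA, the core of sites for the myeloid factor PU.1, and in Clec4e also TTGCNNAA, a C/EBP site, each on either strand.
Fcgr4 (chr1:171018676-171018975, plus strand): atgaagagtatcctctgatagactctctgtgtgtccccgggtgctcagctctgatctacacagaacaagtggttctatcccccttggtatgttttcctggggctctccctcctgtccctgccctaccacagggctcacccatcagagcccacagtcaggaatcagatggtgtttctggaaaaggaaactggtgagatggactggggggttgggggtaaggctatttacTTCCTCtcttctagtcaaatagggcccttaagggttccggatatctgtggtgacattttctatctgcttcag
Clec4d (chr6:123261857-123262156, plus strand): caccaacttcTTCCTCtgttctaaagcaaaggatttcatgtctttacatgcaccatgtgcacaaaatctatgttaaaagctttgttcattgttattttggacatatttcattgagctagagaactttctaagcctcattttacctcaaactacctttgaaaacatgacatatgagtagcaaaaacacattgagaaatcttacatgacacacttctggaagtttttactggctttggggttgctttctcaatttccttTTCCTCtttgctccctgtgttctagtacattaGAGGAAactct
Clec4e (chr6:123289822-123290121, minus strand): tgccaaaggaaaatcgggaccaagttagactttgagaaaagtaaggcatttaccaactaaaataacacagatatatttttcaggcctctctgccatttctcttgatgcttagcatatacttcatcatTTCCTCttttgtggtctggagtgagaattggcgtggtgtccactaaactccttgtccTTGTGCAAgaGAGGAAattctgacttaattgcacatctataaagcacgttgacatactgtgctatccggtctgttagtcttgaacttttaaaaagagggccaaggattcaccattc
Clec7a (chr6:129472730-129473029, minus strand): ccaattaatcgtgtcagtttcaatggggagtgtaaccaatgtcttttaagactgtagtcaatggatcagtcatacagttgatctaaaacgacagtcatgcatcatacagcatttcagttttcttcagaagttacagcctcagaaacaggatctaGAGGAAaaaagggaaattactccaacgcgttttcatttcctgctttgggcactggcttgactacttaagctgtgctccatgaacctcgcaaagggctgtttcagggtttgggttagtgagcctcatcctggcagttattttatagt
GAGGAA was found in at least 1 window of 6 of the 8 genes (Fcgr1, Fcgr3, Fcgr4, Clec4d, Clec4e and Clec7a), and 31.3% of the 27025 genes with a window hold it. TTGCNNAA was found for Fcgr3 and Clec4e, beside 12.2% of all genes. An AP-1 motif, TGANTCA, and an NF-kB motif were found in none of the 8, beside 8.97% and 0.466% of all genes. These matches describe letters in a window and not sites of binding.

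One array stood apart. In replicate 1 of the control diet on day 2, 9 of the 10 genes lay above replicate 2, by 1.62 on average over the 10, whereas that mean difference lay between -0.23 and 0.17 in the 11 other groups outside day 3. Clec4d, for example, was at 8.16 in that array and 4.48 in its partner. Across all genes, its difference from its partner correlated at 0.671 with the CLA effect on day 3, against -0.272 to 0.227 in those other groups (genes are not independent replicates). The labels give no reason to leave the array out, so it was kept in the main results. Some of the results on day 2 and between days, not all, are also given without it. The 2 arrays of a group correlated across genes at 0.979 to 0.995, and precision is bounded by having so few arrays.

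All 10 genes were higher on the CLA diet over the 7 days, where 18.7% of all genes were called higher and 19.8% lower. Their median effect was 2.20 on the log2 scale, against -0.03 over all genes, and the range ran from 1.11 for Clec4n to 4.01 for Clec4d. Without the control array that stood apart all 10 were again called, with a median of 2.28. In bulk tissue such as this, a change in the number of cells of a type and a change in RNA per cell cannot be told apart.

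By day, the number called higher was 5 on day 1, 7 on days 2 and 3, 8 on days 4, 7 and 10, and 9 on day 17, and none was called lower on any day. The shares of all genes called higher were 7.96%, 4.84%, 11.3%, 12.8%, 8.74%, 10% and 11.5% from day 1 to day 17, and the shares called lower were 10.8%, 5.34%, 11%, 11.3%, 8.57%, 10.2% and 8.78%. Fcgr1, Fcgr4 and Clec4d were called on every day, as were 0.901% of all genes. Without the control array that stood apart, 9 of 10 were called on day 2 (7.51% of all genes) and 8 on day 1 (8.61%). Without its partner, control replicate 2 of day 2, 1 of 10, Fcgr1, was called on day 2 (0.368% of all genes, 67 against 881 with all arrays).

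Both CLA arrays lay above both control arrays for 9 of the 10 genes on day 1 (22.5% of all genes), 7 on day 2 (19%), and all 10 on day 3 (29.1%), day 4 (28.5%), day 7 (23.7%), day 10 (23.4%) and day 17 (30.1%). For 6 genes this held on every day, as for 4.07% of all genes. In no member did all 14 CLA arrays lie above all 14 control arrays (0.83% of all genes). Without the array that stood apart the 14 CLA arrays lay above the remaining 13 control arrays for 5 members, Fcgr1, Fcgr4, Tyrobp, Clec4d and Clec4e (2.52% of all genes). For Clec4e the margin was small and at a low level, with the lowest CLA array at 3.35 and the highest remaining control array at 3.23.

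**Figure D1:**
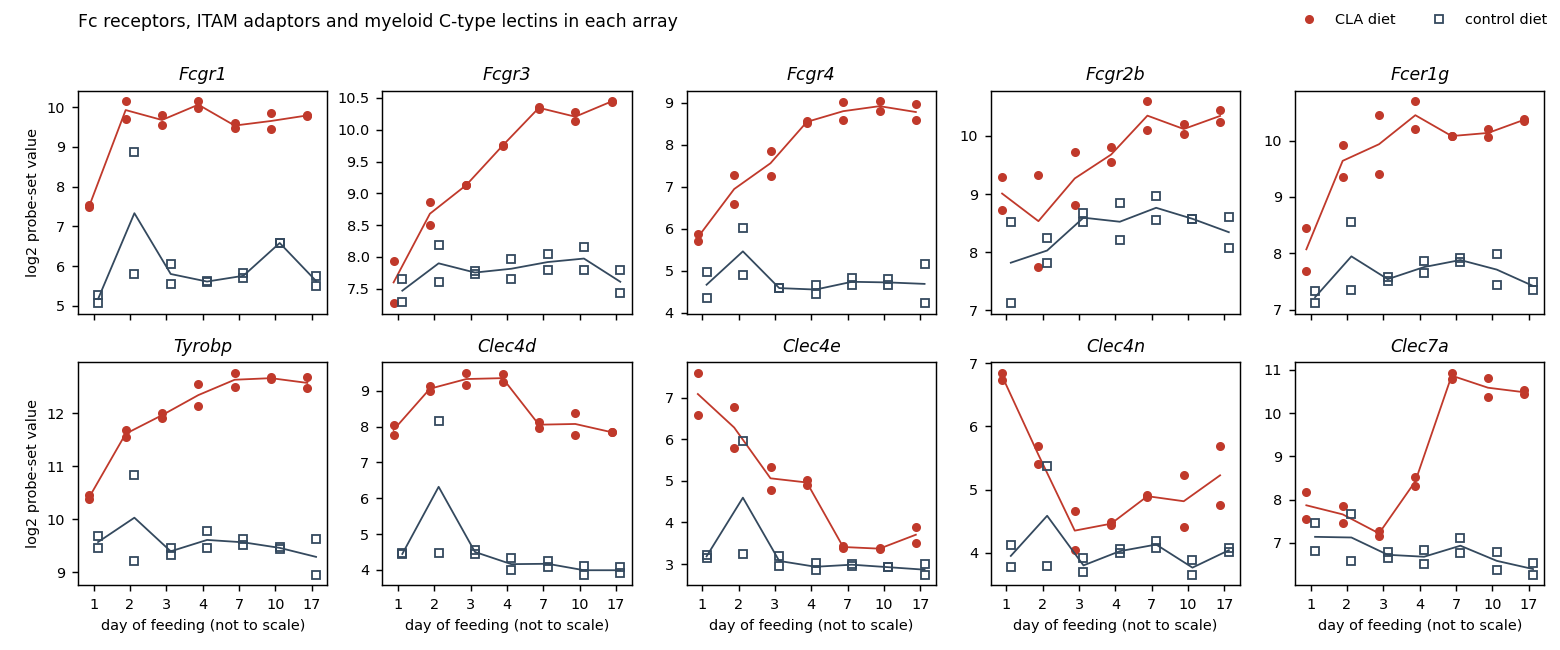
Log2 probe-set value (y axis, a separate scale for each gene) of the 10 genes by day of feeding (x axis, days not to scale). Filled red circles are single arrays of the CLA diet, open squares are single arrays of the control diet, and lines join the means of 2 arrays. The high open square on day 2 in most panels is replicate 1 of the control diet, at 8.16 for Clec4d against 4.48 in its partner.

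Among the activating Fc receptors, Fcgr1, the high-affinity IgG receptor, had the largest effect over all days by the probe sets used. Its 14 CLA arrays ran from 7.49 to 10.15 with a median of 9.74, against 5.06 to 8.86 with a median of 5.72 in the 14 control arrays. On day 1 the CLA arrays read 7.49 and 7.54, against 5.28 and 5.06 in the control arrays, and on day 4 the CLA arrays read 10.15 and 9.97, against 5.59 and 5.63 in the control arrays. The diets were apart on each day, and the highest control array other than the one that stood apart was at 6.59. The effect over all days was 3.47 ± 0.26 (n = 7 days, adjusted p = 2.55e-05), a fold of 11.1. It was 2.35 on day 1 and reached 4.45 on day 4. A second probe set of Fcgr1 had 2.16 over all days, below the 3.14 of Fcgr4, and missed the threshold on day 1, at 0.91. Fcgr4 had a larger effect than Fcgr1 on days 7 and 10, and the difference between these receptors was not tested.

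Fcgr4, the receptor for IgG2a and IgG2b, started lower. Its CLA arrays read 5.71 and 5.88 on day 1, 6.60 and 7.29 on day 2, 7.26 and 7.86 on day 3, 8.56 and 8.53 on day 4, 9.02 and 8.58 on day 7, 8.80 and 9.04 on day 10, and 8.97 and 8.59 on day 17. The control arrays read 4.98 and 4.35, 6.02 and 4.90, 4.59 and 4.58, 4.45 and 4.65, 4.82 and 4.65, 4.79 and 4.65, and 5.15 and 4.22 on the same days. The CLA arrays were higher on each day, and from day 4 on the lowest was 8.53 while the highest control array was 5.15. The effect was 1.13 on day 1, 2.98 on day 3 and 4.00 on day 4, and then stayed between 4.07 and 4.20. The day 1 call was lost without either CLA array or control replicate 2 of that day (0.82 to 1.22), and the day 2 call without replicate 2 of either diet (1.14 and 0.93). Over all days it was 3.14 ± 0.41 (adjusted p = 0.000407).

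Fcgr3, a low-affinity activating receptor, did not separate the diets on day 1, with 7.27 and 7.93 in CLA arrays against 7.29 and 7.65 in control arrays. By day 17 the CLA arrays were at 10.44 and 10.45, against 7.43 and 7.79 in the control arrays. Its effect was 0.13 on day 1, 1.38 on day 3, 2.43 on day 7 and 2.84 ± 0.22 on day 17 (adjusted p = 3.69e-08 on day 17). Over all days it was 1.67 ± 0.30.

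The inhibitory receptor Fcgr2b was higher over all days by 1.24 ± 0.17 (adjusted p = 0.000504). Its CLA arrays ran from 7.74 to 10.60 with a median of 9.77, against 7.12 to 8.97 with a median of 8.54 in control arrays. It was called on days 7, 10 and 17 only, with effects of 1.59, 1.55 and 2.00 (SE 0.44). The day 10 call was lost without any 1 array of that day (1.46 to 1.64), and the day 7 call without replicate 2 of either diet (1.34 and 1.38). On day 2 its CLA arrays, 7.74 and 9.33, overlapped the control arrays, 7.81 and 8.25. On day 1 the effect of 1.19 missed the threshold (adjusted p = 0.0706), with control arrays at 7.12 and 8.52.

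Whether the activating receptors changed more than the inhibitory one was tested over the 7 days with exact two-sided sign-flip permutation tests, among 7 pairs of members. The effect of Fcgr1 exceeded that of Fcgr2b on 7 of 7 days by 2.23 ± 0.79 (SD; exact p = 0.0156, the smallest 7 days allow, adjusted p = 0.109). Fcgr4 exceeded Fcgr2b on 6 of 7 days by 1.90 ± 1.05 (SD; exact p = 0.0312, adjusted p = 0.109). Fcgr3 and Fcgr2b differed by 0.44 ± 0.69 (SD; exact p = 0.172). None of the 7 pairs passed after adjustment, and with 7 days 1 pair alone at the smallest exact p could not have passed. This does not show that the effects were equal. Effects of different probe sets also depend on the probes' own response, which the array does not calibrate.

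The common gamma chain Fcer1g, which the activating receptors and 3 of the lectins need, was higher by 2.17 ± 0.22 over all days (adjusted p = 0.000111). CLA arrays ran from 7.69 to 10.70 with a median of 10.08, against 7.11 to 8.55 with a median of 7.54 in control arrays. The daily effects were 0.85, 1.70, 2.40, 2.70, 2.20, 2.43 and 2.95, and the first of these missed the threshold (adjusted p = 0.102). Tyrobp was higher by 2.47 ± 0.29 over all days (adjusted p = 0.000222), with CLA arrays between 10.39 and 12.77 and control arrays between 8.95 and 10.84. Its effect was 0.85 on day 1, which missed the threshold, 2.57 on day 3 and 3.29 on day 17. The 2 adaptors differed by -0.30 ± 0.39 (SD, Fcer1g minus Tyrobp, n = 7 days, exact p = 0.0938).

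**Figure D2:**
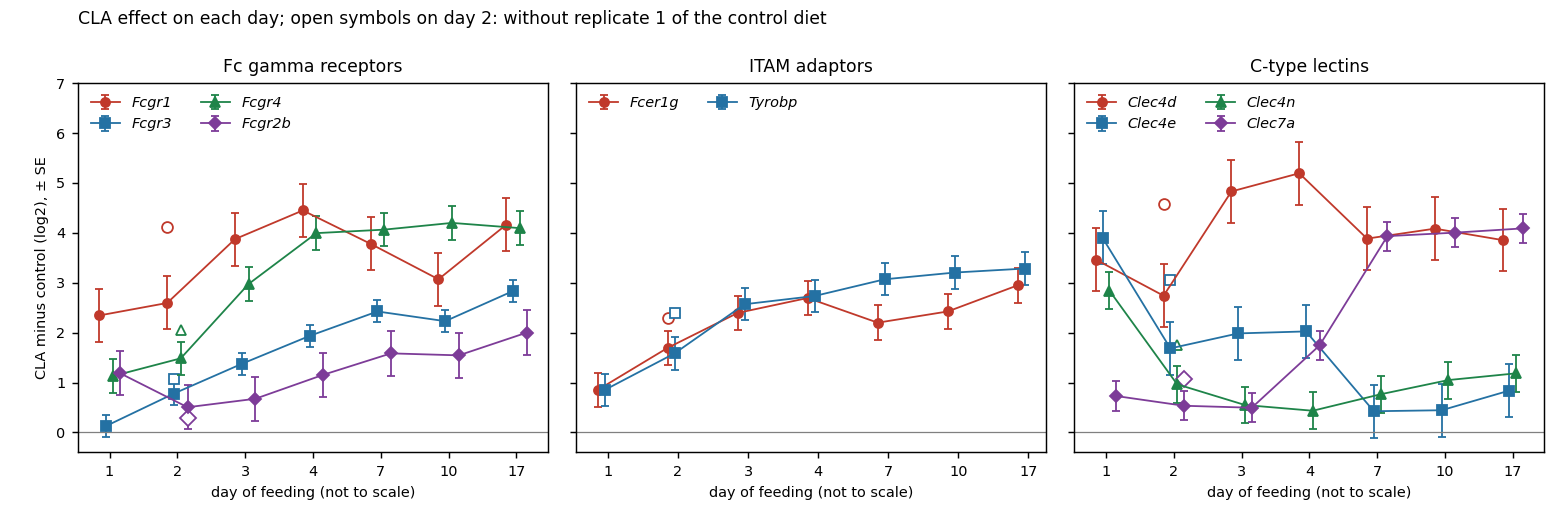
CLA minus control on the log2 scale with its SE (y axis) by day of feeding (x axis, not to scale) for the Fc gamma receptors, the adaptors and the lectins. Open symbols on day 2 give the effect without replicate 1 of the control diet, 4.58 against 2.74 for Clec4d. Clec7a passes from 0.50 on day 3 to 3.94 on day 7, whereas Clec4e is at 3.90 on day 1 and 0.43 on day 7.

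The 4 lectins followed different courses. Clec4d had the largest effect of the 10 genes over all days, 4.01 ± 0.26 (adjusted p = 1.48e-05), a fold of 16.1. Its CLA arrays read 8.06 and 7.76 on day 1, 9.13 and 8.99 on day 2, 9.51 and 9.15 on day 3, 9.24 and 9.47 on day 4, 8.14 and 7.97 on day 7, 8.37 and 7.78 on day 10, and 7.85 and 7.84 on day 17. The control arrays read 4.43 and 4.46, 8.16 and 4.48, 4.56 and 4.44, 4.00 and 4.32, 4.26 and 4.08, 3.86 and 4.12, and 3.91 and 4.07 on those days. The groups were apart on each day, and 13 of the 14 control arrays lay below every CLA array. The effect was already 3.47 on day 1 and was highest, at 5.20, on day 4. On day 2 it was 2.74 with all arrays and 4.58 without the array that stood apart.

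Clec4e, a receptor for mycobacterial glycolipid and for a protein released by dying cells, was highest at the start. CLA arrays read 7.60 and 6.57 on day 1, 6.78 and 5.78 on day 2, 5.34 and 4.78 on day 3, 5.03 and 4.89 on day 4, 3.38 and 3.44 on day 7, 3.39 and 3.35 on day 10, and 3.90 and 3.51 on day 17. The control arrays read 3.15 and 3.22, 5.96 and 3.23, 2.96 and 3.19, 3.02 and 2.85, 2.96 and 3.01, 2.92 and 2.93, and 2.99 and 2.74. The groups overlapped on day 2 only. The effect was 3.90 ± 0.53 on day 1 (adjusted p = 2.83e-05), 1.69, 1.99 and 2.03 on days 2, 3 and 4, and 0.43, 0.45 and 0.84 on days 7, 10 and 17, which missed the threshold. The day 3 call was lost without replicate 1 of either diet on that day (1.71 and 1.87), and the day 4 call without control replicate 2 (1.94). The day 2 call (adjusted p = 0.0489) was lost in most fits with 1 other array left out, while without the array that stood apart the effect was 3.05 (adjusted p = 9.19e-06).

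Clec4n, the Dectin-2 receptor for fungal mannan, had CLA arrays of 6.85 and 6.74 on day 1, against 4.12 and 3.78 in control arrays. On day 4 CLA arrays were at 4.48 and 4.44, against 3.99 and 4.06 in control arrays, and on day 17 CLA arrays were at 5.69 and 4.76, against 4.07 and 4.01 in control arrays. The diets did not overlap on these days, and the gap between them was widest on day 1. The effect of 2.85 ± 0.37 on day 1 (adjusted p = 1.76e-05) was followed by 0.97, 0.55, 0.44, 0.77, 1.05 and 1.19, of which only the value of day 17 was called (adjusted p = 0.0276). That call was lost without CLA replicate 1 of the day (0.72) or without either control array (1.22 and 1.16). Without the array that stood apart the day 2 effect was 1.76 and was called, and the day 10 effect of 1.05 (adjusted p = 0.052 with all arrays) was called too (adjusted p = 0.00795). It was also called after quantile normalisation (0.0365) and after median centring (0.0446). RMA values carry no detection call, and the control medians of Clec4e (3.00) and Clec4n (4.00) lay below the array medians of 4.1 to 4.2. The CLA arrays of Clec4e from day 7 on (3.35 to 3.90) lay below those medians too.

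Clec7a was close to the control level at first and far above it later. CLA arrays read 8.18 and 7.56 on day 1, 7.86 and 7.46 on day 2, 7.16 and 7.28 on day 3, 8.32 and 8.53 on day 4, 10.80 and 10.94 on day 7, 10.81 and 10.37 on day 10, and 10.53 and 10.44 on day 17. The control arrays read 7.46 and 6.82, 7.66 and 6.59, 6.79 and 6.66, 6.52 and 6.84, 7.11 and 6.76, 6.80 and 6.37, and 6.26 and 6.53. The diets overlapped on day 2 and were close on days 1 and 3, and from day 7 on the lowest CLA array was 10.37 while the highest control array was 7.11. Effects of 0.73, 0.54 and 0.50 on days 1 to 3 missed the threshold, and 1.75, 3.94, 4.01 and 4.09 from day 4 passed it (SE 0.29). Without the array that stood apart the day 2 effect was 1.07 (adjusted p = 0.0191), and days 1 and 2 were also called (adjusted p = 0.0385 on day 1). Over all days the effect was 2.22 ± 0.54 (adjusted p = 0.0104).

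The CLA effect differed between days for 6 of the 10 genes by the interaction test, which called 9.82% of all genes. These were Clec7a (adjusted p = 3.8e-06), Fcgr3 (8.16e-05), Fcgr4 (0.000239), Tyrobp (0.00512), Clec4e (0.0299) and Clec4n (0.0439). Without the array that stood apart 9 were called (10.6% of all genes), with Fcgr1, Clec4d and Fcer1g added. The calls of Clec4e and Clec4n were lost in several fits with 1 array left out, among them that without CLA replicate 1 of day 1 (adjusted p = 0.129 and 0.165).

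The mean effect of days 7, 10 and 17 minus that of days 1, 2 and 3 was called higher for 4 genes (6.2% of all genes) and lower for 1 (3.51%). It was 3.42 ± 0.24 for Clec7a, 2.26 ± 0.27 for Fcgr4, 1.74 ± 0.18 for Fcgr3 and 1.52 ± 0.26 for Tyrobp. For Clec4e it was -1.95 ± 0.43 (adjusted p = 0.00615). Without the array that stood apart it was 3.245 for Clec7a, 2.07 for Fcgr4, 1.64 for Fcgr3, 1.25 for Tyrobp and -2.41 for Clec4e. Clec4d had 0.26 with all arrays and -0.35 without the one that stood apart, and neither value passed. The difference between Clec4e and Clec7a in this contrast was not tested. Over the 7 control groups no member was called (0.115% of all genes), with 4 called when control replicate 2 of day 2 was left out (1.24% of all genes).

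Across the 14 group means the 45 pairs of members correlated at a median of 0.813. The highest value was 0.993, for Fcgr4 and Tyrobp. The lowest was 0.0391, for Fcgr3 and Clec4e, and Clec4e and Clec7a were at 0.0564. The points share days, diets and arrays, so these values describe the courses only.

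For 4 genes more than 1 probe set names the gene alone. A second Fcgr1 probe set had an effect over all days of 2.16, against 3.47 for the one used, and on day 1 it had 0.91 and missed the threshold (adjusted p = 0.193), against 2.35. For Fcgr2b 3 others had 0.75, 0.82 and 0.86, against 1.24, and the last, with a mean of 2.63 over the arrays, had 0.00. The 3 brighter of these passed the threshold on day 17 and missed it on day 7 (adjusted p from 0.0949 to 0.142) and day 10 (0.194 to 0.402), where the one used passed. The second probe sets of Clec4e and Clec4n had 0.47 and 0.64, against 1.62 and 1.11, and on day 1 they had 1.33 and 1.71. On days 3 and 4 that of Clec4e missed the threshold, at 0.335 and 0.345 (adjusted p = 0.327 and 0.305), where the one used passed. It passed on day 2, at 0.915 (adjusted p = 0.00782), and that of Clec4n passed on day 17, at 1.04 (adjusted p = 0.000786). Over all days each of these probe sets except the dim one of Fcgr2b passed the threshold, with p-values adjusted over all probe sets. Fcgr2b and Fcgr3 are close in sequence and some of the probe sets carry the suffixes that mark possible cross-hybridisation, so their signals may not be fully separate here. The only probe set of Clec4d and the one used for Clec4n also carry such a suffix.

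**Figure D3:**
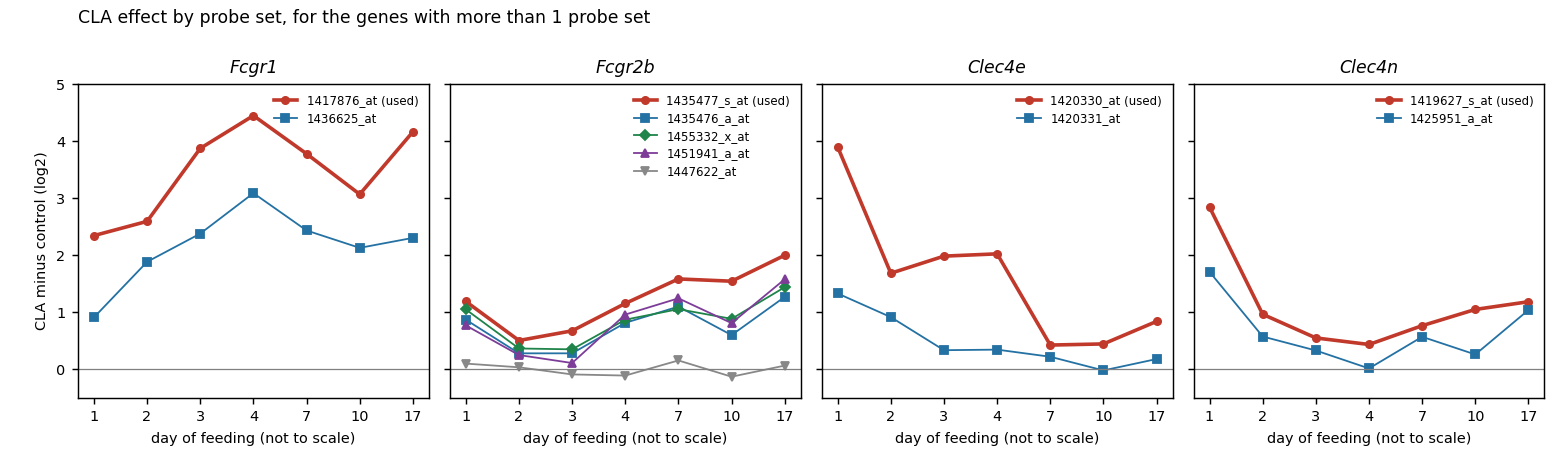
CLA minus control on the log2 scale (y axis) by day of feeding (x axis, not to scale) for each probe set of the 4 genes that have more than 1. The thick red line is the probe set with the highest mean, which was used. For Fcgr2b the grey line of the dim probe set stays near 0, and the other lines are highest on day 17.

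The partners and targets of the adaptors were counted in lists chosen with earlier results of these data known, and the share of all genes called higher over all days, 18.7%, is the background to each. Of 11 further receptors that pair with these adaptors, 7 rose and none fell. The largest were Cd300lb at 3.33 ± 0.42, Sirpb1a at 3.15 ± 0.19 and Trem2, a lipid-sensing receptor of macrophages, at 3.04 ± 0.53. Trem2 was 0.02 on day 1 and 4.07 on day 17. Trem1 (0.01) and Oscar (-0.06) missed the threshold.

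Of 20 genes of ITAM signalling, 17 rose and none fell, with a median effect of 1.71. The kinase Syk was higher by 1.74 ± 0.28, its substrate adaptors Blnk and Lcp2 by 3.01 ± 0.48 and 2.10 ± 0.16, and Lat2 by 2.73 ± 0.46. Pik3r5, a regulatory subunit of a PI3-kinase, was higher by 2.95 ± 0.29. Malt1 (-0.13), Pik3cd (-0.14) and Nfatc1 (0.23) missed the threshold. On day 1, 6 of the 20 were called higher and 1, Nfatc1, lower.

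Inhibitory receptors and phosphatases rose as well, 12 of 16, while 1, Ptpn11, fell by 0.54. Among them Cd300a was higher by 2.92 ± 0.43, Clec4a2 by 2.73 ± 0.32 and Pirb by 2.52 ± 0.27, and Inpp5d, the phosphatase that Fcgr2b recruits, by 1.57 ± 0.20. The median effect was 1.30.

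Of 18 other lectins 5 rose and 3 fell, with a median of 0.01. Clec4b1 (2.22 ± 0.46), Clec4a3 (1.98 ± 0.35), both relatives of Clec4n, and Clec10a (1.32 ± 0.28) rose, and Cd209b fell by 1.04. Of 9 other Fc receptors 3 rose and 2 fell, with a median of 0.03. Fcgrt, the neonatal Fc receptor, which handles IgG recycling, fell by 0.68, and Fcer1a, the IgE-binding chain, rose by 0.66.

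**Figure D4:**
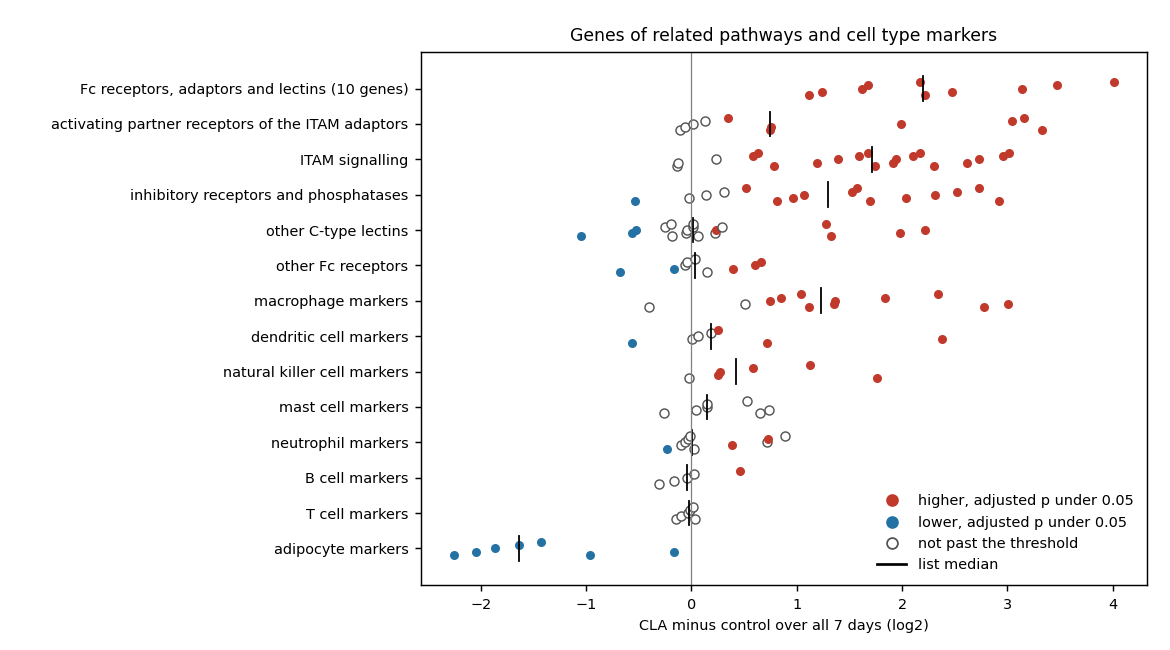
CLA minus control over all 7 days on the log2 scale (x axis) for single genes (points) of each list (rows). Red points were called higher, blue points lower, open points missed the threshold, and the vertical bars are list medians. The 10 genes run from 1.11 to 4.01, the adipocyte markers from -2.25 to -0.17.

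The lists of cell type markers did not all move alike, and their part in these results was not tested. Of 12 macrophage markers 10 rose over all days, with a median of 1.23. Mpeg1 was higher by 3.00 ± 0.35, Cd68 by 2.78 ± 0.39 and Adgre1 by 2.35 ± 0.43, while Mertk (0.51) and Cd163 (-0.40) missed the threshold. The number called higher was 1 on day 1, 5 on day 2, 7 on day 3, 9 on day 4 and 11 from day 7 on. On days 3 and 4, 1 marker was called lower, Cd163, at -1.08 and -0.97. The mean log2 level of the list ran from 8.14 to 10.66 in CLA arrays, against 8.13 to 9.02 in control arrays. On day 1 the means were 8.14 and 8.51 in CLA arrays and 8.13 and 8.48 in control arrays. The effects of the single macrophage markers ran from -0.52 to 1.015 that day, with a median of -0.16. Those of the 10 genes ran from 0.13 to 3.90, with a median of 1.16.

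Neutrophil markers were called higher on day 1 for 4 of 10, among them S100a9 at 3.48 and S100a8 at 2.57, and the list's mean was 4.79 and 4.99 in CLA arrays, against 4.06 and 3.98 in control arrays. The granule genes Ngp, Camp, Ltf, Elane and Mpo were within 0.22 of no difference that day, and in all arrays they stayed between 2.84 and 4.59. Over all days 2 of 10 neutrophil markers rose and 1 fell.

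Natural killer cell markers, whose cells also carry Fcgr3, Fcer1g and Tyrobp, rose for 5 of 6 over all days. Klrd1 was higher by 1.76 ± 0.24 and Gzma by 1.12 ± 0.24, with Prf1 at -0.03. The called markers Ncr1 and Eomes had CLA means of 3.70 and 3.92, below the array medians, and Klre1 had 4.22. The number called higher was 0 on days 1 and 2, and 3 on days 3 and 4. It was 5 on day 7, 2 on day 10 and 1 on day 17. The list's mean level ran from 4.20 to 5.67 in CLA arrays, against 4.05 to 5.13 in control arrays. Of 7 mast cell markers none was called over all days and 4 were on day 17, and their mean ran from 4.89 to 6.56 in CLA arrays, against 4.82 to 5.45 in control arrays. In the dendritic cell list 3 of 7 rose and 1 fell, among B cell markers 1 of 5 rose, and no T cell marker of 6 was called. Adipocyte markers fell for 7 of 7 and stayed high in both diets, since their mean level ran from 9.95 to 10.93 in CLA arrays, against 11.20 to 12.15 in control arrays.

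A sign of RNA quality, the 3' minus 5' difference of the Actb control probe sets, was 2.72 and 2.28 in the CLA arrays of day 1 and 2.77 and 1.50 in the control arrays of day 1, and on the other days 0.77 to 1.44 in CLA arrays, against 1.10 to 1.87 in control arrays. The Actb group mean was lower in CLA arrays than in control arrays on each of days 2 to 17, for example 0.81 against 1.31 on day 4. For Gapdh the difference was 1.31 and 1.27 in CLA arrays of day 1, against 1.33 and 0.15 in control arrays, and on the other days 0.32 to 1.20 in CLA arrays, against 0.15 to 1.04 in control arrays. The Gapdh group mean went the other way, higher in CLA arrays on every day but day 7, for example 0.83 against 0.235 on day 3. The part of these differences in the results was not tested.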

How the data were processed

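RNA of pooled retroperitoneal pads was profiled on 28 arrays. The deposited values are log2 probe-set values made by the authors with RMA, per the submitters' processing notes; version and genome build are not given in the sources used here. Nothing was renormalised and dim probe sets were kept. Of 45101 probe sets, 34958 name 1 gene, 932 several and 9211 none, and 34754 matched a reference gene by ID (GRCm38.p6). Each of 18194 genes is represented by its probe set of highest mean over the 28 arrays.

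Tests used limma 3.58.1 in R 4.3.3, with figures in matplotlib 3.10.9 and Python 3.11.15. One fit of all 14 groups, leaving 14 residual degrees of freedom, yielded the daily CLA effects, the diet by day interaction, days 7, 10 and 17 minus days 1, 2 and 3 (late minus early), and an F test among control groups. Effects over all days came from group means with day as a block (6 residual degrees of freedom). P-values are two-sided, adjusted by Benjamini and Hochberg within a comparison, with a threshold of 0.05; every adjusted p without another test named is from limma. The steps were tested on simulated data. The 10 genes are named because they were given. From the lists of partner receptors, ITAM signalling, inhibitory genes and other lectins, the 3 called genes with the largest effect are named. Further genes of those lists, and all genes named from the other lists, were picked after their values were seen. The members and lists were chosen with earlier results of these data known. Alternatives changed the normalisation, the dim filter, the probe set rule, the variance prior, the replicate block, the arrays and days in the fit; leaving the day 2 control array out of the comparisons between members, the separation of arrays and the correlations was chosen after seeing the data. Some listed genes were not analysed here.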

Additional observations from a re-analysis of the deposited data

Results flagged for a closer look

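The CLA effect differed between days for 6 of the 10 genes by the interaction test of limma over all 7 days. The adjusted p was 3.8e-06 for Clec7a, 8.16e-05 for Fcgr3, 0.000239 for Fcgr4 and 0.00512 for Tyrobp, in which the effect was larger on the later days. It was 0.0299 for Clec4e and 0.0439 for Clec4n, in which day 1 had the largest effect. Without control replicate 1 of day 2 all 6 were called again, with values from 4.76e-07 for Clec7a to 0.00222 for Clec4n. Groups of 2 arrays are too small for a gap test of a single array within a group.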

How the results depend on the processing

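Of 3080 values of single members with 1 array left out 2950, and of 1028 under other settings 992, kept their direction and their side of the threshold. An array of another day does not enter the effect of a day and changes only its spread, so many of these values could move little. Counts are not in these totals and were taken as unchanged within 1.5 times. All 10 members were called higher over all days under every setting run except the filter on dim genes, which removed Clec4e and Clec4n and left 8 of 8 called. With 1 array left out, members called higher ran from 5 to 8 on day 1, from 1 to 9 on day 2 and from 4 to 7 for late minus early; members called over the control groups ran from 0 to 4. Fcgr3 on day 1 ran from -0.20 to 0.46 and was also -0.05 without control replicate 1 of day 1, Fcgr2b on day 2 ran from -0.29 to 1.30, and Clec4d late minus early ran from -0.35 to 0.88. All genes called ran, higher, from 67 to 1367 on day 2 and 1327 to 2216 on day 17; lower, from 276 to 1089 on day 2, 1263 to 2166 on day 3, 1287 to 2168 on day 4, 975 to 1668 on day 7, 1161 to 1978 on day 10 and 1025 to 1694 on day 17; and 15 to 225 over the control groups. The causes were not tested, beyond fewer arrays. With that filter, a mean of at least 5, 0 members were lower for late minus early, and 2 genes were called over the control groups, against 21; an intensity trend gave 40. With the arrays of the day alone, day 1 gave 282 genes higher and 309 lower, and day 2 gave 0 members and 0 genes in either direction. Testing all probe sets raised the number tested and the counts: higher and lower 6528 and 7117 over all days, 3274 and 3357 on day 3, 3785 and 3147 on day 4, 2754 and 2899 on day 10, 3231 and 2465 on day 17, and higher 2545 on day 1 and 2623 on day 7. Arrays of 1 replicate number in the 2 diets of a day deviated together, at r between 0.0978 and 0.566 across genes. The labels do not say whether the numbers pair the samples, and the main fits left them unpaired. With the replicate block 36 genes were called over the control groups. That block also gave calls for Fcgr2b on days 1 and 4 and late minus early, and for Clec4n on day 10. Fcer1g was then called for the interaction and late minus early.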

Other observations

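Outside the 10 genes, the gene whose course over the 14 group means was most like each was as follows. For Fcgr4 and Tyrobp the nearest was Ncf4, a subunit of the phagocyte oxidase (Pearson r = 0.995 for each), for Fcgr3 Ctsh, a lysosomal protease (0.996), and for Fcer1g Irf5, a transcription factor of the inflammatory response (0.996). Fcgr1 was nearest to Lcp1, an actin-bundling protein of leukocytes (0.991), Fcgr2b to Cd14, a co-receptor for lipopolysaccharide (0.959), and Clec4d to Cytip (0.991). Clec4e was nearest to Pwp1 (0.988) and then Trem3 (0.961), Clec4n to Il17ra (0.956) and then Osmr (0.942), both cytokine receptors, and Clec7a to Ipcef1 (0.984) and Cd22 (0.981). Without control replicate 1 of day 2 the nearest gene of each was the same, at 0.96 to 0.996. The highest of many correlations over 14 points that share a diet effect is a description only.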
